A study of Mus musculus with 16 samples.

Results

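The genes described here are 10 stress and growth response genes of the mouse kidney: Fos, Jun, Junb, Egr1, Ier2, Atf3, Dusp1, Btg2, Plk2 and Rcan1. They were chosen by gene symbol with earlier results of these arrays known. Plk2 and Rcan1 had been named there among the genes lower in mutant than in control kidney, and the other 8 are immediate early genes or their close companions. Their values in that comparison are therefore a description and carry no test. The array held 13 probes for them, out of 20355 probes and 9930 named genes. Jun had 3 probes, Btg2 had 2 and each of the others had 1, and every probe was read on its own, with its spread between repeat arrays.

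Kidney RNA of 4 male mice aged 15 weeks and labelled MFP2-/- was hybridised on two-channel cDNA arrays. The second channel held 1 pool made from 5 wild-type males of the same age, of the strain labelled Swiss strain SWR/Ola Hsd. The gene Hsd17b4 encodes MFP2, a peroxisomal enzyme that shortens fatty acids which mitochondria handle poorly. The labels name no treatment, and for the mutants they give the genotype in place of a strain name. Each mouse was measured on 4 arrays of the same RNA, 2 with the mutant in the red dye Cy5 and 2 with it in the green dye Cy3, so the 16 arrays stand for n = 4 mice and 1 control pool. How much wild-type animals vary was not measured.

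All values below are log2 ratios after each array was centred on its median, read as mutant over pool. That direction is likely and not stated: channel 1 of the labels is always the mutant, but no source gives the sign of the ratio. With the sign turned on all 16 arrays, lower would read as higher throughout. The 510 extreme values were all positive where the mutant was in Cy5 (292) and all negative where it was in Cy3 (218), so their sign turned with the dyes. The other reading is Cy5 over Cy3 on every array. It is given beside each member whose sign it turns or whose value it moves by more than the SD between mice. For genes that are not members its value is not given, and their signs and values may change with it too. The arrays held 19737 to 20228 values each, and the median SD between repeat arrays of 1 mouse in 1 orientation was 0.27 over all probes. Precision is limited by the number of mice (4) and the 1 control pool, and more arrays of the same RNA would not change that. For the targeted gene Hsd17b4, probe 4590 read -1.69, -1.50, -0.10 and -0.34 in mice 1 to 4, a mean of -0.91 ± 0.80 (SD, n = 4). Probe 1446 read 0.02, 0.83, 0.34 and 0.52, a mean of 0.43 ± 0.34. Probe 4590 averaged -0.89 on the Cy5 arrays and -0.92 on the Cy3 arrays. As Cy5 over Cy3, where the sign of the Cy3 arrays is turned, these averages would largely cancel. Limma's F-test between mice, described below, called probe 4590 (Benjamini-Hochberg adjusted p of 0.0421) and did not call probe 1446 (0.187). Which stretch of the transcript either probe reads is unknown here, and neither checks the genotype. The values are ratios and hold no level per gene, so the labelled tissue could not be checked by whether its defining markers were present.

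Immediate early genes are switched on within minutes of a stimulus, without new protein synthesis, by transcription factors that are already in the cell, such as serum response factor and CREB. Their products include the subunits of the AP-1 transcription factor (Fos and Jun proteins), other regulators of transcription, and inhibitors such as Dusp1 that switch the signal off again. In kidney they are known to rise with ischaemia, tubular injury, growth factors and the handling of tissue. Plk2, a polo-like kinase, and Rcan1, an inhibitor of the phosphatase calcineurin, are also induced quickly by stress.

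CREB and its relatives bind the cyclic AMP response element, TGACGTCA, and some early gene promoters carry only the shorter TGACG. The stretches of promoter that hold these letters are shown because they are what members of the group share in sequence, whatever their ratios here. RefSeq promoters of build GRCm38.p6 were matched for 8 of the 10 genes, with 2 start sites for Rcan1; Egr1 and Ier2 were not matched. Each line is a run of 100 bases before a transcription start, 5′ to 3′ on the strand of the gene. Capitals mark the full element where there is one, and otherwise the short element on either strand.
Plk2, chr13:110394936-110395035, plus strand: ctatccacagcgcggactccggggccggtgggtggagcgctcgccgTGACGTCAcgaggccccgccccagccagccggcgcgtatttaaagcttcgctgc
Rcan1, inner start, chr16:92400200-92400299, minus strand: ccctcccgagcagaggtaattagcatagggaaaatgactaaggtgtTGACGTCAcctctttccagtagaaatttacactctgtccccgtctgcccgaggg
Dusp1, chr17:26508562-26508661, minus strand: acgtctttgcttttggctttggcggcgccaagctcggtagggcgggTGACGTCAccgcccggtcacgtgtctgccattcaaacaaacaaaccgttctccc
Btg2, chr1:134079268-134079367, minus strand: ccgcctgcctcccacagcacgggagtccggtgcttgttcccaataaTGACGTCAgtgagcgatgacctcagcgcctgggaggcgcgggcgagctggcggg
Fos, chr12:85473776-85473875, plus strand: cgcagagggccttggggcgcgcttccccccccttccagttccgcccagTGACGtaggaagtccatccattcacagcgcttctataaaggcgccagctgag
Junb, chr8:84978803-84978902, minus strand: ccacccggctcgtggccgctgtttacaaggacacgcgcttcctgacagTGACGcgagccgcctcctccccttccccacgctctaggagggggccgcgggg
Atf3, chr1:191183334-191183433, minus strand: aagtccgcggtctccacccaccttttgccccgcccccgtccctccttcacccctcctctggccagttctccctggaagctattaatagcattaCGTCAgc

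Within 250 bases before the start, on either strand, the full element was found at 4 of the 9 member starts, against 1.55% of 32851 RefSeq promoters. The short element was found at 7 of 9, against 17.8%; it lies inside the full element on both strands, so each full match also counts as a short match. The AP-1 element TGANTCA was found at 1 of 9, before the inner start of Rcan1, against 6.75% of all promoters. The CArG box, the letters read by serum response factor, was found at 0 of 9, against 1.47%, and the NFAT core GGAAA at 3 of 9, against 55.6%. The EGR element GCGNGGGCG was found at 1 of 9, before Btg2, against 4.70%. The paired heat shock letters GAANNTTC were found at 2 of 9, against 6.69%, TATAAA at 1 of 9, against 12.4%, and CCAAT at 4 of 9, against 33.9%. These are matches of letters and show neither binding nor use of a site. Bases further upstream, and the promoters of Egr1 and Ier2, were not searched, so a count of 0 does not show that a gene lacks the element. Which start of Rcan1 its probe reads is unknown here.

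The first question was how well the array measured these genes. Across all probes, 88.5% had a value on each of the 16 arrays; among the 13 member probes, 6 did. In all, 32 of 208 possible member values were missing. One further member value, for Egr1, was an extreme of -16.4 as deposited and was treated as missing. The probes of Fos, Egr1 and Jun (probe 20296) had values on 7, 8 and 9 arrays, where 0.87% of all probes had at most 9. These 3 probes lie in a run of 151 consecutive probe numbers, from 20205 to 20355, in which no probe had a value on more than 14 arrays. In that run the median SD between repeat arrays was 1.35, over 134 probes with such an SD, against 0.26 for all other probes. Gapdh, a glycolytic enzyme used as a reference transcript, has 1 probe in the run, with 10 values and a repeat SD of 1.48; its 2 probes elsewhere had 16 values each and repeat SDs of 0.29 and 0.34. The run was noticed after the values were seen.

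The values of these 3 probes were also of a particular kind. On every array 1 exact value was the commonest, shared by 69 to 209 probes. Other values lay from it by the log2 of a ratio of small whole numbers, such as 2 to 1. Within 0.0011 of such a ratio of whole numbers up to 5 lay 4 of 7 values of Fos (57.1%), 5 of 9 of Jun probe 20296 (55.6%) and 3 of 8 of Egr1 (37.5%). The share was 42.1% in the run of 151 probes and 2.01% in probes with 16 values. Plk2 had 2 of 14 such values (14.3%), Jun probe 3296 and Btg2 probe 4088 had 1 each, and the other 7 member probes, Rcan1 among them, had 0. The extreme values lay at a median distance of 15.61 to 17.02 from the commonest value of their array, where the log2 of 100000 is 16.6. No intensities were analysed here, so how bright these spots were is unknown. This pattern too was found after the values were seen.

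The ratios of Fos are the thinnest of the group. Fos encodes the AP-1 subunit that pairs with Jun. Its 7 values were -0.11, 1.04 and -0.92 in mouse 1, -0.08 in mouse 2, 0.27 and -0.24 in mouse 3, and 0.06 in mouse 4. The pair of repeat arrays of mouse 1 with the mutant in Cy3 read 1.04 and -0.92, opposite in sign and both at small whole-number ratios. Only mice 1 and 3 had both dye orientations, with -0.02 and 0.01, so the probe entered no test, and these arrays give no usable ratio for Fos in either direction. Read as Cy5 over Cy3 its mean would be 0.08 in place of -0.01.

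Egr1, a zinc finger transcription factor, was measured in both orientations in 3 mice, with 1.36, -0.20 and 0.07 in mice 1, 2 and 3. Its mean of 0.41 ± 0.83 (SD, n = 3) was -0.07 without mouse 1. With the extreme value of mouse 2 kept, the mean was -0.94. Mouse 4 had 1.82 and 0.63 with the mutant in Cy3 and nothing with it in Cy5. Read as Cy5 over Cy3 the mean would be -0.20. The sign of the Egr1 mean thus turned on 1 mouse, on 1 spot or on the reading of the ratio.

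Jun, the partner of Fos in AP-1, had 3 probes that did not read alike. Probe 3296 had -0.15, -0.35, 0.02 and -0.23 in mice 1 to 4, a mean of -0.18 ± 0.16 (SD, n = 4), and a repeat SD of 0.16 that is smaller than that of most probes (percentile 11.8). Probe 5735 had -0.09, 0.06, -0.05 and -0.14, with a mean of -0.05 ± 0.09 and a repeat SD of 0.38. Both were slightly below 0 in 3 of 4 mice, though not in the same 3. As Cy5 over Cy3, probe 3296 would have a mean of 0.13. Probe 20296, in the run of poorly measured numbers, had 1.91, -0.07 and 1.46 in mice 1, 2 and 4, a mean of 1.10 ± 1.04 (SD, n = 3). Its Cy5 arrays averaged 0.11 and its Cy3 arrays 2.16, and the mean was -1.06 if the values are Cy5 over Cy3. The highest Jun ratio therefore came from the probe with the fewest values.

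Junb, an AP-1 subunit of the Jun family, lay close to 0 in every mouse, with -0.08, -0.02, 0.01 and -0.01 and a mean of -0.02 ± 0.04 (SD, n = 4). On the arrays it ran from -0.48 to 0.69 with a median of -0.13. All 8 arrays with the mutant in Cy3 were below 0, and 6 of 8 with the mutant in Cy5 were above. The mean near 0 thus came from averaging values of opposite sign: 0.24 on the Cy5 arrays and -0.28 on the Cy3 arrays. The mean also changed sign with the array repeat, at 0.12 on repeat 1 and -0.17 on repeat 2.

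Atf3, a stress-induced factor of the ATF and CREB family that can pair with Jun proteins, read -0.01, 0.00, 0.02 and 0.04 in mice 1 to 4, a mean of 0.01 ± 0.02 (SD, n = 4). Of the member probes it had the smallest repeat SD, 0.12. It too split by dye, with 7 of 8 arrays above 0 with the mutant in Cy5 (mean 0.16) and 6 of 8 below 0 with it in Cy3 (mean -0.13). Read as Cy5 over Cy3, Junb would have a mean of 0.26 and Atf3 one of 0.15.

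**Figure D1:**
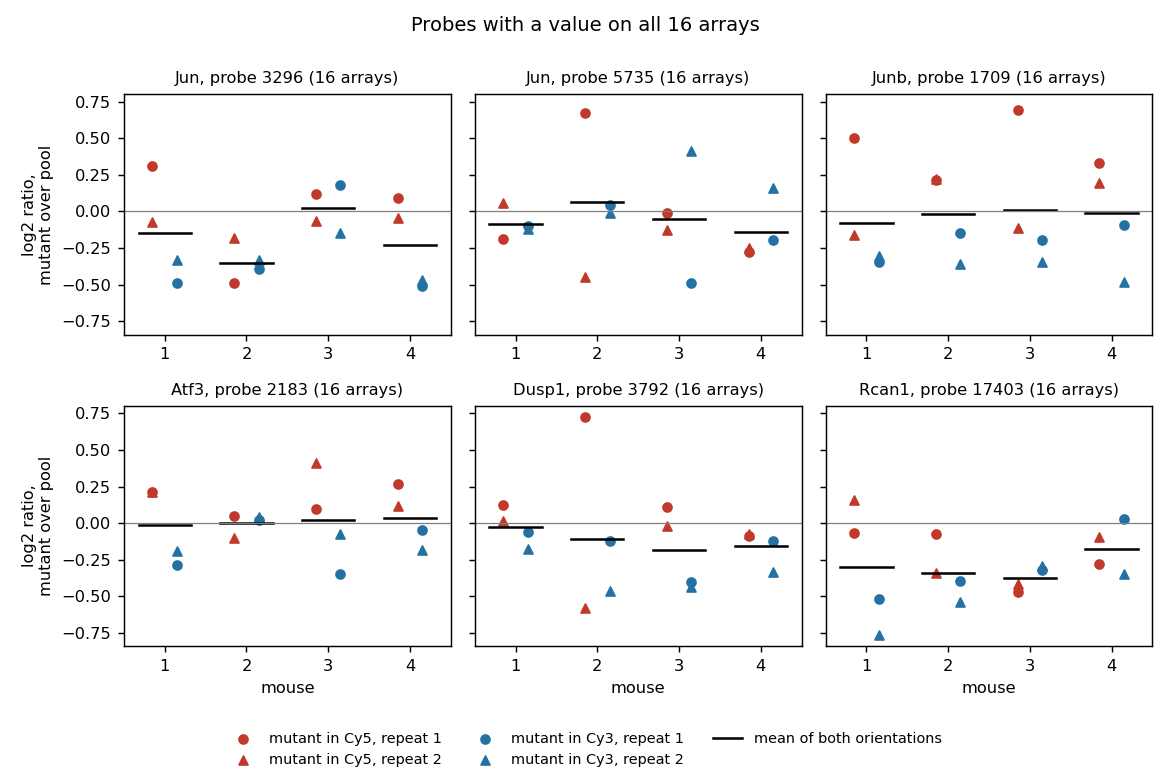
Log2 ratio (vertical axis, mutant over pool) on each array for the 6 member probes with 16 values, by mouse (horizontal axis); red is the mutant in Cy5, blue the mutant in Cy3, circles and triangles are array repeats 1 and 2, and black bars are the mean of both orientations per mouse. Rcan1 lies below 0 on 14 of 16 arrays, while Junb lies below 0 on all 8 Cy3 arrays and above 0 on 6 of 8 Cy5 arrays.

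Ier2, a short-lived nuclear protein induced by growth factors, varied most from mouse to mouse among the members measured in both orientations in all 4 mice, relative to its array error. Mice 1 to 4 read 0.23, -1.03, 0.67 and -0.16, averaging -0.08 ± 0.72 (SD, n = 4). Mouse 2 was low through 2 of its 3 arrays, -2.18 and -0.95, and its other array read -0.05. Mouse 3 was high through its 2 Cy3 arrays, 1.72 and 0.71, while its Cy5 arrays read 0.08 and 0.17.

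Dusp1 is the phosphatase that dephosphorylates MAP kinases and so ends the signal that induces these genes. It read -0.03, -0.11, -0.19 and -0.15 in mice 1 to 4, a mean of -0.12 ± 0.07 (SD, n = 4). Its 16 values ran from -0.58 to 0.73 around a median of -0.10. All 8 Cy3 arrays were below 0, while the Cy5 arrays were split evenly, 4 above and 4 below. Both ends of its range came from mouse 2, on the 2 repeats with the mutant in Cy5. The mean was 0.02 on array repeat 1 and -0.26 on repeat 2. It would be 0.14 as Cy5 over Cy3, so the sign of Dusp1 depends on that reading.

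Btg2, an antiproliferative protein that promotes mRNA deadenylation, had 2 probes with wide ranges. Probe 3966 had 11 values from -3.50 to 3.90, both extremes on Cy5 arrays, and read -0.47, 0.25 and 1.92 in mice 1, 3 and 4, a mean of 0.57 ± 1.23 (SD, n = 3). Without mouse 4 its mean was -0.11. Probe 4088 had 15 values from -1.32 to 3.58 and read 0.17, 1.63, -0.07 and -0.20 in mice 1 to 4, a mean of 0.38 ± 0.85 (SD, n = 4). Without mouse 2, whose 1 value with the mutant in Cy5 was 3.58, that mean was -0.03. Neither probe kept the sign of its mean when its highest mouse was left out.

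Plk2, a polo-like kinase of early cell cycle entry and of the stress response, had the lowest mean of the group and the widest repeat spread. In mouse 1 its arrays read -2.11 and -0.24 with the mutant in Cy5, and -0.66 and 0.79 in Cy3. In mouse 2 they read -0.53 and -5.63 with the mutant in Cy5, and -0.90 and 0.25 with it in Cy3. Mouse 3 had 1 value in each orientation, -0.24 and -2.56. Mouse 4 read -0.90 and -1.20 with the mutant in Cy5, and -1.86 and 1.92 with it in Cy3. All 7 Cy5 arrays were thus below 0, and 4 of 7 Cy3 arrays. The mouse values were -0.56, -1.70, -1.40 and -0.51, with a mean of -1.04 ± 0.60 (SD, n = 4).

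The SD between repeat arrays of Plk2 was 1.99 over 6 pairs, larger than that of 99.7% of probes. Divided by the square root of its 14 arrays this gives an array error of 0.53 on the mean, against 0.04 for Rcan1. The mean was -0.82 without mouse 2, which holds the value of -5.63, and it was -0.90 with medians over the arrays of a mouse. It was -1.16 on array repeat 1, -0.69 on repeat 2 and -0.34 if the values are Cy5 over Cy3. Plk2 was low in all of these readings, by amounts that its repeat arrays do not fix closely.

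Rcan1 binds and restrains calcineurin and is itself induced by calcineurin and NFAT signalling. It had the smallest repeat SD of the members below 0 in every mouse. With the mutant in Cy5 then Cy3, its arrays read -0.07, 0.16, -0.52 and -0.77 in mouse 1. They read -0.07, -0.34, -0.40 and -0.54 in mouse 2, and -0.47, -0.41, -0.32 and -0.29 in mouse 3. In mouse 4 they read -0.28, -0.10, 0.03 and -0.35. The 14 values below 0 include all 8 of mice 2 and 3, and 3 of 4 in each of mice 1 and 4. Its mouse values of -0.30, -0.34, -0.37 and -0.17 gave a mean of -0.30 ± 0.09 (SD, n = 4). The repeat SD was 0.16 (percentile 9.18) and the array error of the mean was 0.04. That error leaves out differences between the orientations of a mouse, which were large in mouse 1. Its Cy5 arrays averaged -0.20 and its Cy3 arrays -0.39, and read as Cy5 over Cy3 the mean would be 0.10. Of the 18004 probes with 16 values, 0.761% were below 0 on at least 14 arrays; Rcan1 was chosen with this contrast in view, so nothing is read from that share.

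**Figure D2:**
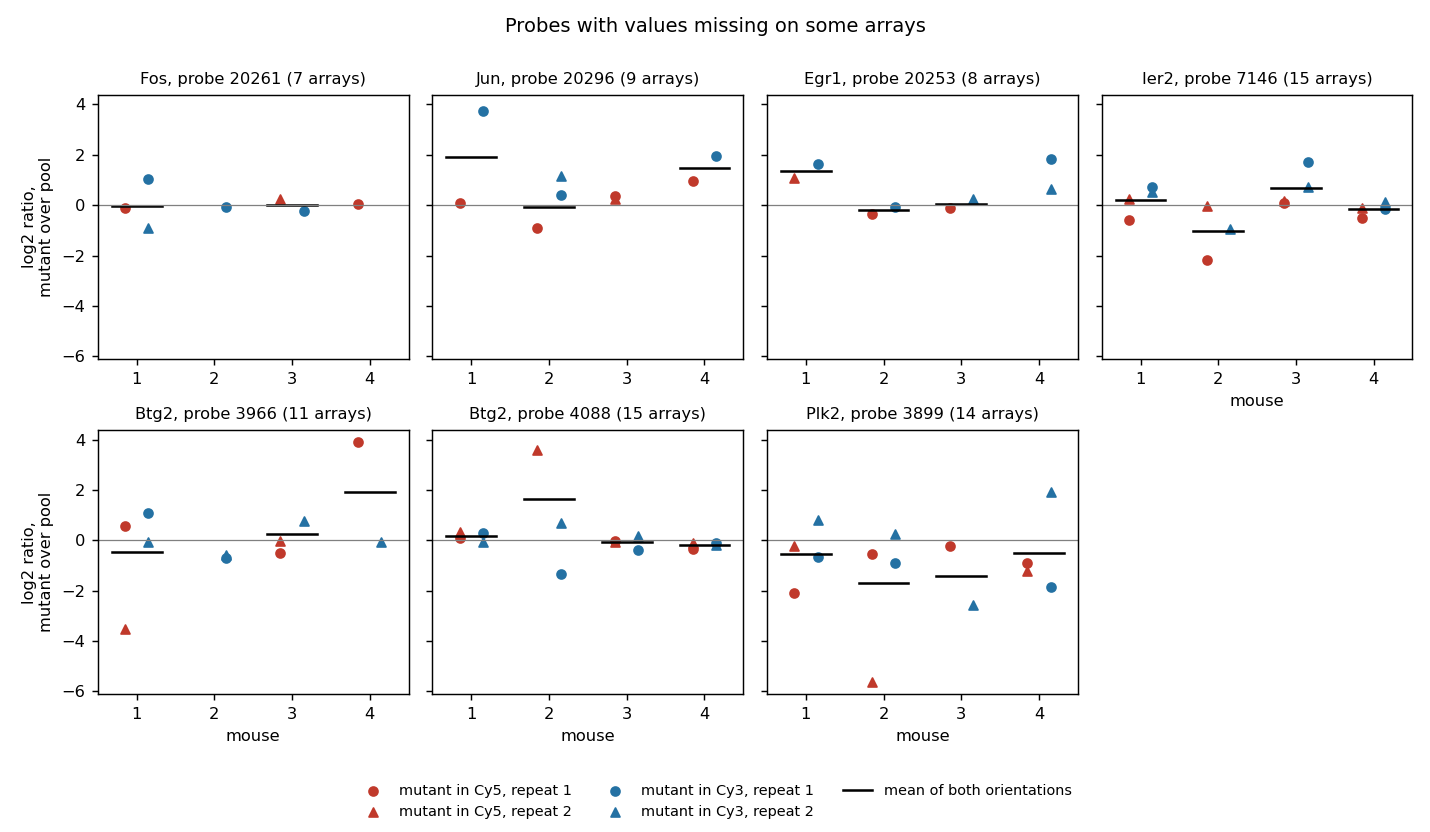
Log2 ratio (vertical axis, mutant over pool) on each array for the 7 member probes with missing values, by mouse, with the same colours, symbols and bars as the plot of complete probes but a wider axis. Plk2 runs from -5.63 to 1.92, and Fos has values on 7 of 16 arrays.

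Over the 12 member probes measured in both orientations in at least 3 mice, 7 had a mean below 0 and 5 above, where 50% of the 20187 probes tested were below 0. Their median was -0.04, and -0.06 without the run of poorly measured numbers, where the median of all probes tested was 0.00. Of the 9 with a value in all 4 mice, Dusp1, Plk2 and Rcan1 (3) were below 0 in every mouse, and 9.69% of all such probes were; of these 3, Plk2 alone also had a mean below 0 as Cy5 over Cy3. Per mouse, the members' median was -0.05, -0.11, 0.01 and -0.15 in mice 1 to 4. The sign of the group's median depended on the dye: it was 0.068 from the Cy5 arrays alone, -0.13 from the Cy3 arrays alone, and 0.12 if the ratios are Cy5 over Cy3. In limma's fit of the mean against 0 over all probes, none of the 12 had a Benjamini-Hochberg adjusted p under 0.05, as for all 20187 probes (0%). At an unadjusted p under 0.05 there were 3, against 1791 of all probes (8.87%); the members were chosen on this contrast, and nothing is read from these counts.

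**Figure D3:**
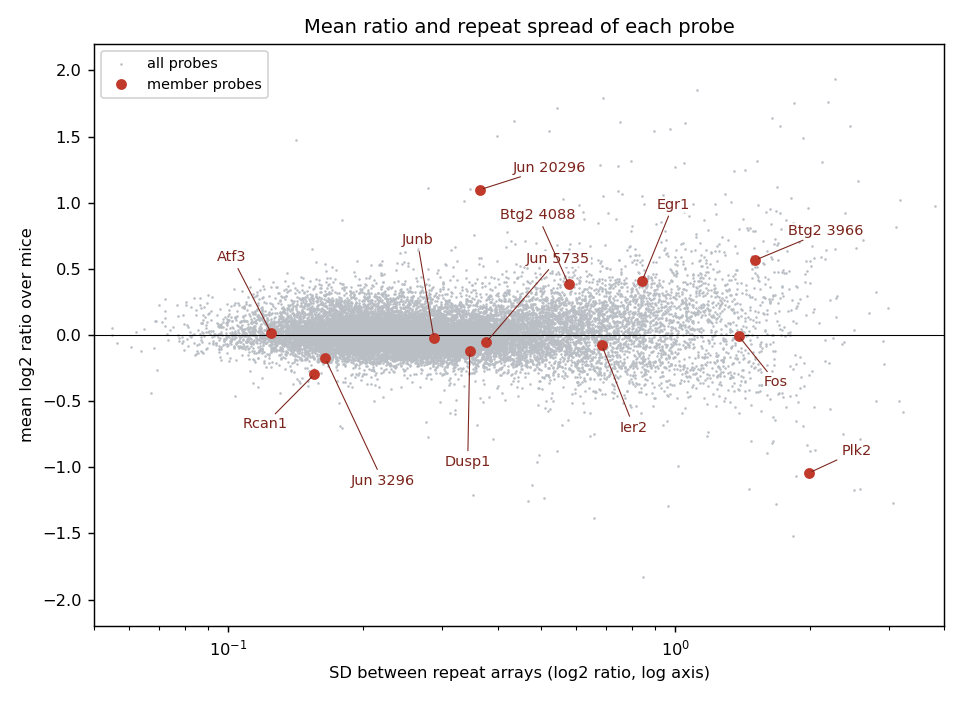
Mean log2 ratio over mice (vertical axis) against the SD between repeat arrays (horizontal log axis) for all probes (grey; a few lie outside the axes) and the 13 member probes (red). Plk2 is far to the right with a repeat SD of 1.99, whereas Rcan1, at 0.16, is far to the left.

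A comparison that the choice of members did not use is that between the 4 mice: whether they differ by more than repeat arrays of 1 mouse. It could be fitted for 9 member probes and 19775 probes in all, with the dye as a term. The F-test of limma, adjusted by Benjamini-Hochberg, called 0 of the 9 (0.243% of all probes, 48, were called), with adjusted p from 0.265 to 0.995. At an unadjusted p under 0.05 there was 1 of 9, Ier2, against 11.4% of all probes. Ier2 had an unadjusted p of 0.0119 and an adjusted p of 0.265, with an array SE of 0.28 on the value of mouse 1, so its spread from -1.03 to 0.67 did not pass the threshold. For Rcan1 the adjusted p was 0.886 and for Plk2 0.895; the array SE was 0.12 and 0.82. The test measures spread between arrays of the same RNA, and a p above the threshold does not show that the mice were alike.

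The dye orientation moved some members more than the mouse did. Limma's test of the dye term, with Benjamini-Hochberg adjustment over all 19775 probes, called 1 of 9 member probes, where 8.45% of all probes were called. Junb was 0.52 ± 0.13 (SE) higher with the mutant in Cy5 than in Cy3, with an adjusted p of 0.0303. Atf3 was 0.29 ± 0.10 (SE) higher, with an adjusted p of 0.0687 that missed the threshold. Of the 9 probes, 6 were higher with the mutant in Cy5. The number of member probes called was 0 without mouse 1, 3 or 4, and 3 without mouse 2 or with uncentred arrays. The share called is near that of all probes and is no result about the group.

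**Figure D4:**
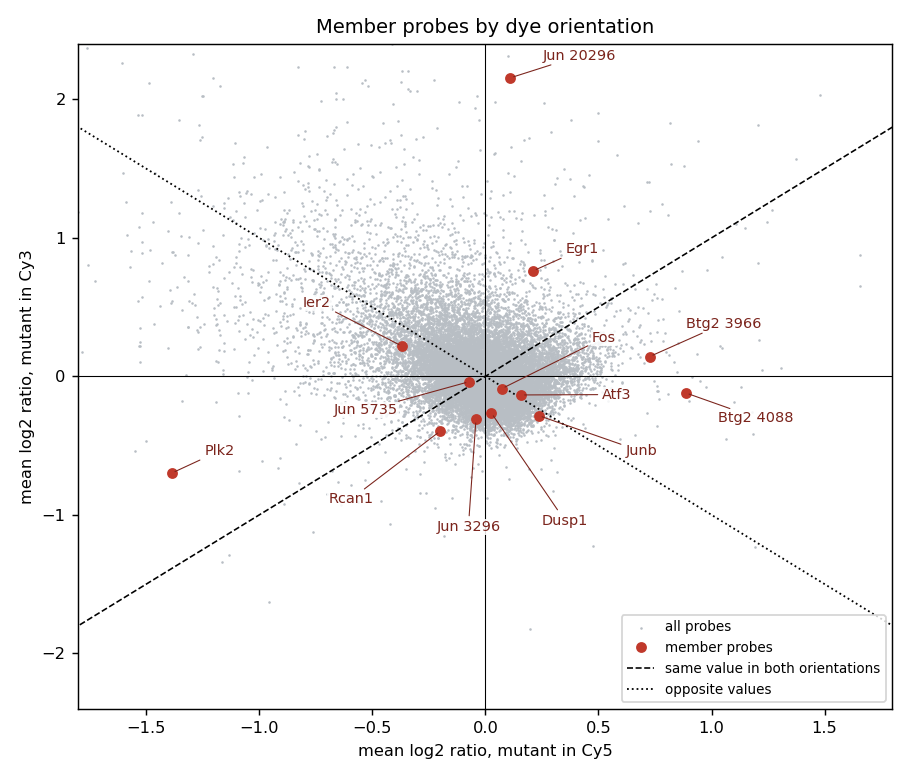
Mean log2 ratio with the mutant in Cy3 (vertical axis) against that with the mutant in Cy5 (horizontal axis) for all probes (grey; a few lie outside the axes) and member probes (red); the dashed line marks equal values and the dotted line opposite values. Rcan1, Plk2 and Jun probes 3296 and 5735 lie in the quadrant below 0 in both orientations. Junb (0.24 and -0.28) and Atf3 (0.16 and -0.13) lie along the dotted line.

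Array by array, the members did not follow one another closely. Among the 6 probes with 16 values, after the mean of each orientation was subtracted, Pearson's r over 16 arrays ran from -0.49 to 0.61 in 15 pairs, with a median of 0.08 and 9 pairs above 0. The highest pair was Dusp1 with Jun probe 5735, and the lowest was Jun probe 3296 with Jun probe 5735, which read the same gene. These arrays share the control pool, and 4 at a time share a mouse, so the values are a description. Members aside, the named probes most like the median of those 6 were Fanca (r = 0.88), Gdap1l1 (0.88), Taf10 (0.83), Bicd2 (0.83), Xpo6 (0.83) and Slc7a8 (0.82). They were ranked among the 12424 named probes with 16 values. Each had a mean between -0.12 and 0.06. The 6 members themselves had r from 0.18 to 0.55 with their own median.

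Related genes were read from lists ordered by closeness to the members. The first 4 genes of each with a probe measured in both orientations in at least 3 mice are named, whatever their values. Genes with values in fewer mice, such as Myc, Creb1, Btg3 and Hspa1b, were passed over. In none of the 9 lists did limma call a probe in the comparison of mutant with pool (0 in each direction) or between mice (0). The AP-1 and Maf relatives had a median of 0.03 over 9 probes, 4 below 0 and 5 above. Fosb and Fosl1, which replace Fos in AP-1, had -0.08 ± 0.05 and -0.01 ± 0.10 (SD, n = 4). Batf, an AP-1 factor of blood cells, had 0.19 ± 0.18, and Jdp2, a repressor that pairs with Jun, had 0.59 ± 0.99 with a repeat SD of 1.16. The well measured relatives of Fos thus stood near 0.

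Other early response genes had a median of 0.01 over 43 probes, 19 below 0 and 24 above. Nr4a1, an orphan nuclear receptor of the early response, had 0.65 ± 0.48 (SD, n = 3) with a repeat SD of 1.11. Ier3, an early gene linked to cell survival, had 0.23 ± 0.21 (SD, n = 4) and 0.25 ± 0.32 on its 2 probes. Zfp36, which destabilises the mRNAs of many early genes, had 0.14 ± 0.16, and Klf4, a zinc finger factor, had 0.01 ± 0.16. Without a call in either direction, this larger list sat on the median of all probes.

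The genes that carry signals to the early promoters had a median of 0.05 over 20 probes, 9 below 0 and 11 above. Srf, the serum response factor, had 0.07 ± 0.07 and 0.28 ± 0.26 (SD, n = 4) on its 2 probes. Its partners Elk1, Elk4 and Mrtfb had -0.04 ± 0.13, -0.18 ± 0.23 and -0.05 ± 0.06. The relatives of Dusp1 had a median of -0.06 over 8 probes, with Dusp4 at 0.07 ± 0.09, Dusp2 at 0.09 ± 0.24, Dusp10 at 0.01 ± 0.19 and Dusp14 at -0.03 ± 0.12. Of the relatives of Btg2, 3 probes were measured in both orientations in at least 3 mice. Btg1 had 0.22 ± 0.27, Tob2 -0.06 ± 0.18 and Btg4 0.07 ± 0.35. In these 3 lists the dye term was called for 1 probe, that of Btg4, with -0.28 when the mutant was in Cy5 and 0.41 when it was in Cy3. It was also called for 5 of 42 probes of the other early response genes, 2 of 23 of the calcineurin and NFAT list, and 1 of 11 of the heat shock list. The AP-1 and Maf, polo-like kinase and p53 lists had 0. Of all probes, 8.45% were called.

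The other polo-like kinases did not share the low value of Plk2: Plk1, a mitotic kinase, had 0.15 ± 0.22 (SD, n = 4), Plk3 -0.12 ± 0.12 and Plk4, of centriole duplication, 0.04 ± 0.22. Whether Plk2 differs from them was not tested. In the calcineurin and NFAT list, which holds the target and the inducers of Rcan1, the median was 0.04 over 23 probes, 9 below 0 and 14 above. The calcineurin subunits Ppp3cb and Ppp3r1 had 0.08 ± 0.29 and 0.00 ± 0.12. Rcan2 had -0.09 to 0.04 on 3 probes and Rcan3 had -0.07 and -0.05 on 2. The p53 response list had a median of -0.04 over 12 probes. Its inhibitor of the cell cycle Cdkn1a had -0.13 ± 0.11, Sesn1 had -0.10 ± 0.14, Mdm2, which degrades p53, had 0.00 and 0.02 on 2 probes, and Ccng1 had -0.14 to 0.07 on 3 probes.

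The heat shock list was the 1 related list whose probes lay mostly on one side, with 11 of 12 below 0 and a median of -0.39. Its medians were -0.48, -0.49, -0.61 and -0.13 in mice 1 to 4. Dnajb1, a co-chaperone of Hsp70, had -0.37 ± 0.27 (SD, n = 4). Hspa1a had -1.25 ± 0.40, Dnaja1 -0.78 ± 0.18, and Hsp90aa1 -0.74 ± 0.64 and -0.16 ± 0.36 on 2 probes. The Cy5 and Cy3 arrays averaged -1.17 and -1.34 for Hspa1a, and -0.64 and -0.93 for Dnaja1. Read as Cy5 over Cy3, these averages would largely cancel. These genes were already known to be lower on these arrays.

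**Figure D5:**
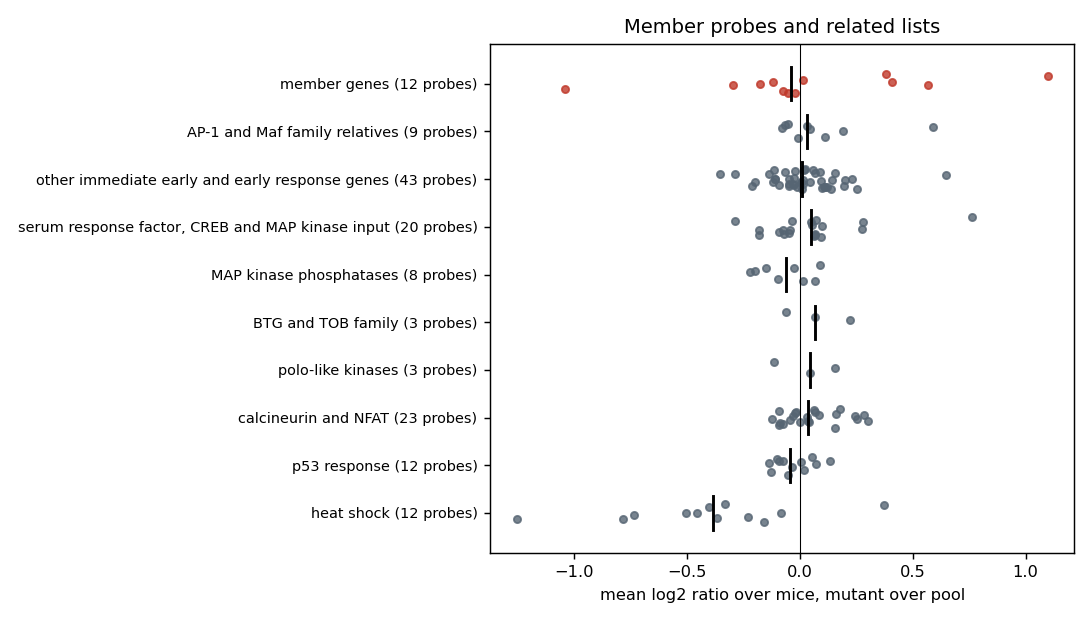
Mean log2 ratio over mice (horizontal axis) of each probe (points, spread vertically for legibility) in the member group, red, and in 9 related lists, grey, with list medians as black bars. The member median is -0.04 and the heat shock median -0.39; the other list medians lie between -0.06 and 0.07.

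Markers of other cell types were read on the same arrays, and limma called 0 of their probes in the comparison of mutant with pool. Of the red blood cell markers, 2 of 5 genes were on the array, and 7 of their 7 probes were below 0, with a median of -0.35 and mouse medians of -0.62, -0.45, -0.40 and -0.01. All of these probes but 1 read Hba-a1, an alpha globin gene (-0.40 to -0.19), so the median is that of a single gene; the other, for Alas2, an enzyme of haem synthesis in red cell precursors, had -0.07. Of the fibroblast and smooth muscle markers, 10 of 11 probes were below 0, with a median of -0.14 and mouse medians from -0.20 to -0.07. Leukocyte markers (7 probes) had a median of 0.01, endothelial markers (8 probes) 0.12, and adrenal cortex markers (5 probes) 0.05, with mouse medians of 0.15, -0.17, 0.46 and -0.08. Adipocyte markers (4 probes) had a median of 0.02. Of the kidney's own cells, distal tubule and collecting duct markers (4 probes) had a median of 0.24, with 0.28, 0.36, 0.09 and 0.22 in mice 1 to 4. Aqp2 had 0.46 ± 0.25 (SD, n = 4), Atp6v1g3 0.36 ± 0.26, Pvalb 0.11 ± 0.13 and Slc4a1 -0.04 ± 0.11. The podocyte marker Podxl (1 probe) had 0.23, and thick ascending limb markers (3 probes) had a median of -0.15, with means from -0.30 to 0.56. Proximal tubule markers (7 probes) had 0.09, with -0.13, 0.35, -0.09 and 0.25 in mice 1 to 4. Limma's F-test between mice called 1 of these 7, Miox, with a Benjamini-Hochberg adjusted p of 0.0350. Miox read -0.25, 1.25, 0.67 and 0.98 in mice 1 to 4, a mean of 0.66 ± 0.65 (SD, n = 4). In whole kidney, fewer cells of a type and less RNA per cell cannot be told apart. The part of these values, and of those of the heat shock list, in the values of Plk2 and Rcan1 was not tested.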

How the data were processed

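The authors deposited 1 log2 ratio per probe and array; their scanner, background correction, normalisation, direction and log base are not stated in any source used, and base 2 was inferred from the values. Here, values over 10 in absolute size (510 in all) were treated as missing, arrays were centred on their medians, and the values of a mouse were averaged within and then over dye orientations. Probe symbols came from the platform annotation, updated through RefSeq (GRCm38.p6); a single symbol was found for 14030 of 20355 probes, several for 5 and none for 6320. Limma 3.58.1 in R 4.3.3 (statmod 1.5.0), checked on simulated data, tested the mean of mice against 0 in probes with both orientations in at least 3 mice, and differences between mice and dyes in probes with both orientations in all 4, with Benjamini-Hochberg adjustment at 0.05. Picked for naming were all members, the 6 most alike probes, Hsd17b4 and the first 4 genes of each related list with a probe tested against 0. The members, the lists of genes and this rule for naming were chosen with earlier results of these data known. Named genes with a list value are given per probe. All 4 arrays of mouse 1 carry 1 animal identifier, although its number differs between 2 label fields. Alternatives are described in the closing section.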

Additional observations from a re-analysis of the deposited data

How the results depend on the processing

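Counts of called probes and members' values both changed with how the arrays were read. In the comparison of mutant with pool, limma called 0 probes, but 13 with values read as Cy5 over Cy3, 3 with the mutant in Cy5 alone, 2 with it in Cy3 alone, and 291 with all arrays and the mouse as a random block, which counts arrays of 1 mouse almost as separate samples (estimated correlation 0.04). Without each mouse it called 0. Between mice, the 48 calls became 21 with arrays scaled by median absolute deviation, 2 as Cy5 over Cy3, 29 with probes of a gene averaged, 12 without the dye term, 20 with the array repeat as a term, 0 on either array repeat alone, and 7 to 14 without each mouse; 0 member probes were called in any of these. For the dye term, the 1671 calls became 3627 without centring, 335 as Cy5 over Cy3, 0 on array repeat 1, 7 on repeat 2, and 49 to 3479 without each mouse. Member probes called by dye were 1, but 3 without centring, 0 on repeat 1, 0 on repeat 2, and 0 to 3 without each mouse. The members' median of -0.04 was 0.12 as Cy5 over Cy3, 0.068 and -0.13 with the mutant in Cy5 and Cy3 alone, -0.19 on array repeat 2, and -0.06 to -0.03 without each mouse. Leaving out the last run of probe numbers, chosen after seeing the data, gave 0, 51 and 1676 calls in the 3 tests. The causes were not tested. Signal over background is unknown.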
